A study of Mus musculus with 3 samples.

Results

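The genes of the major histocompatibility complex (MHC) class II pathway were followed across the cell types of mouse lung with and without thoracic irradiation. The 10 genes are Cd74, H2-Aa, H2-Ab1, H2-Eb1, H2-DMa, H2-DMb1, H2-DMb2, H2-Oa, H2-Ob and Ciita, chosen by exact symbol among the 27998 genes of the count matrices, and all 10 were found in all 3 libraries. Female C57BL/6 mice aged 10 to 12 weeks provided the lungs, which were dissociated with enzymes, passed through filters of 100 and 40 µm, freed of red blood cells and loaded on a 10x Genomics 3′ version 2 chip. One library was of non-irradiated lung (NI), 1 of lung after 17 Gy to the thorax in conventional mode (CONV) and 1 of lung after 17 Gy in FLASH mode, irradiation at a very high dose rate. Both irradiated groups were treated under isoflurane with electrons of 4.5 MeV from a linear accelerator. The number of mice behind each library and the time between irradiation and dissociation are not given in the sources used here. With 1 library per group there was no test across animals, and every interval below is an exact 95% interval that covers counting error only.

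MHC class II molecules present peptides from endocytosed protein to CD4 T cells. The alpha and beta chains pair in the endoplasmic reticulum with the invariant chain, encoded by Cd74, which blocks the peptide groove and directs the complex to endosomes; there H2-DM removes the last piece of the invariant chain and edits the peptides, and H2-DO inhibits H2-DM. Ciita, the master regulator of the pathway, is constitutive in B cells and dendritic cells and is induced by interferon-gamma elsewhere, and it acts through RFX and NF-Y proteins that sit on the X and Y boxes of the class II promoters. In the lung, alveolar type 2 cells are known to carry class II constitutively, besides the immune cells. C57BL/6 mice lack a working H2-Ea alpha chain, so H2-Eb1 is transcribed without forming an I-E molecule at the surface.

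The promoters are shown because Ciita acts through these boxes. RefSeq promoter entries (build GRCm38.p6, from 250 bases before to 50 bases after a start site) were matched for 7 of the 10 genes. The Y box core TGATTGG stood on the gene's own strand in 6 of these 7, and the X box core CTAGNNAC stood upstream of it in 3. The lines below give 80 bases of each promoter around the Y core, 5′ to 3′ on the gene's strand, with the X and Y cores in capitals. They are shown to compare the spacing of the cores between the chains of the antigen-presenting molecules, H2-DM and H2-DO.
H2-Eb1, chr17:34305751-34305830, plus strand: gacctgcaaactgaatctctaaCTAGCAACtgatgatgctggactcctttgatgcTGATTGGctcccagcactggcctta
H2-Aa, chr17:34287849-34287928, minus strand: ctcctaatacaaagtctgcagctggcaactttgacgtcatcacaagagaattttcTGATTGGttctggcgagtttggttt
H2-DMb1, chr17:34153073-34153152, plus strand: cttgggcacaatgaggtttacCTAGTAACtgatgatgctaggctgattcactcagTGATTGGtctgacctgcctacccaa
H2-DMb2, chr17:34145102-34145181, plus strand: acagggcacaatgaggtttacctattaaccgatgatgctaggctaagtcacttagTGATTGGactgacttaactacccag
H2-Ob, chr17:34238791-34238870, plus strand: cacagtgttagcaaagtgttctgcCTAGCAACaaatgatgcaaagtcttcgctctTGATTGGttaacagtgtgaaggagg
H2-Oa, chr17:34092279-34092358, plus strand: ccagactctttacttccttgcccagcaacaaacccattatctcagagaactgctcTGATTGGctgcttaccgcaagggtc

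The first base of the Y core lay 61 bases before the start site in H2-Eb1, 63 in H2-DMb1, 59 in H2-Ob, 50 in H2-Aa, 92 in H2-DMb2 and 45 in H2-Oa. From the first base of the X core to the first base of the Y core the distance was 33 bases in H2-Eb1, 34 in H2-DMb1 and 31 in H2-Ob. Both strands of all 32851 RefSeq promoter entries were searched the same way: 7.817% held the Y core, 10.43% the X core and 0.7671% both, and in 9 entries (0.0274%) the X core preceded the Y core within 50 bases on the gene's strand. Neither core was found in either of the H2-DMa entries. H2-DMb1 and H2-DMb2, neighbouring genes for alternative beta chains of H2-DM, had the same base at 67 of the 80 positions of their windows, and the substitution G25T lies inside the X core of H2-DMb1 (positions counted from 1 at the 5′ end of the window, H2-DMb1 base first). Only exact matches were counted, so a window without the X core may still hold a variant of the box. The H2-Aa and H2-Oa windows each hold a stretch that differs from the X core at 1 base. A match describes letters only and is not evidence of binding, and Cd74, H2-Ab1 and Ciita are named here without a sequence.

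Of the 10 genes, 8 lie on chromosome 17 of mm10, between H2-Oa (34092340 to 34095234, plus strand) and H2-Eb1 (34305867 to 34316674, plus strand). In between follow H2-DMa (34119541 to 34139101), H2-DMb2 (34143307 to 34151555), H2-DMb1 (34153072 to 34160230), H2-Ob (34238903 to 34254414) and H2-Ab1 (34257689 to 34269419), all on the plus strand, and H2-Aa (34282744 to 34287823) on the minus strand. Cd74 lies on chromosome 18 (60803848 to 60812652) and Ciita on chromosome 16 (10480059 to 10528418), both on the plus strand. All are annotated as protein coding. Of the 98-base stretches in the last 600 bases of the main H2-DMb1 transcript, 16.1% also occur in H2-DMb2, and 2.386% of those of H2-DMb2 occur in H2-DMb1, so a part of the reads of these 2 genes could not be assigned; no other pair of the 10 genes shared such a stretch.

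The libraries held 1761 (NI), 2507 (CONV) and 2394 (FLASH) barcodes with 7114360, 7463259 and 5498902 UMIs, where a UMI marks 1 captured RNA molecule, and 6341 of 6662 barcodes were kept. From 5 to 7 barcodes were shared between any pair of libraries. Clustering without the 10 genes gave 27 clusters, of which 26 were named from fixed markers and are called by the nearest cell type, followed by "-like" where first used. The control library stands apart in its lymphocytes: 353 thymocyte-like cells were in NI and 1 in CONV. Of the T-like cells, 156 of 295 in NI sat in a cluster that held 25 of 316 in CONV and 22 of 272 in FLASH. The 10 genes made up 0.946% of the UMIs of NI, 0.674% of CONV and 0.637% of FLASH, a share that moves with how many cells of each type were captured, so all comparisons below are made within a cell type. Levels are UMIs of a gene per 1000000 UMIs of the cells of a class (CPM); they are not scaled to transcript length, so levels are compared between classes and libraries and not between genes. In such sums, fewer cells holding a transcript and less transcript in each cell cannot be told apart, except where single cells are described.

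In the control lung the order of Cd74 was led by 3 immune classes. Interstitial macrophage-like cells, tissue macrophages outside the air space, reached 42351 CPM (41276 to 43447, 29 cells). The dendritic-like cluster followed at 30829 CPM (30238 to 31429, 55 cells) and B-like cells at 26806 CPM (26366 to 27253, 231 cells). The control sub-clusters of interstitial macrophages, given below, lay on both sides of the dendritic and B cell levels. A step below were alveolar type 2-like cells, the surfactant-producing cells of the alveolus, at 5548 CPM, classical monocyte-like cells at 4633, non-classical monocyte-like cells at 3375 and the blood vessel endothelial-like cluster at 2640. Neighbours in this order down to the endothelial cluster had intervals that did not overlap, whereas alveolar macrophage-like cells (1601 CPM, 1446 to 1768), aerocyte endothelial-like cells (1635 CPM, 17 cells) and club-like cells (1448 CPM) did overlap. T-like cells, which should lack class II and stand here for free RNA, were at 173 CPM in NI, 176 in CONV and 120 in FLASH. Over all libraries Cd74 made up 38.2% and H2-DMa 11.8% of their class II UMIs. These shares were 60.7 and 1.49% in B cells and 53.3 and 1.94% in the dendritic cluster. In the cluster that held most T-like cells of CONV and FLASH, Cd74 was at 129, 169 and 123 CPM in NI, CONV and FLASH. Whether the T-like level, taken over all T-like cells, is free RNA alone was not tested. The control levels were thus 244 times the T-like level in interstitial macrophages, 178 times in the dendritic cluster, 155 times in B cells, 32.0 times in type 2 cells, 26.7 and 19.5 times in the 2 kinds of monocyte and 15.2 times in the endothelial cluster.

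The order was not the same in the irradiated lungs. In CONV, interstitial macrophages led at 21253 CPM, B cells (18448) and the dendritic cluster (17808) had overlapping intervals, classical monocytes took place 4 at 13429 and the endothelial cluster place 13 at 373 CPM, 2.12 times the T-like level. In FLASH, interstitial macrophages (20248) and B cells (19455) overlapped, the dendritic cluster was at 17182, classical monocytes took place 4 at 9379 and the endothelial cluster place 11 at 935 CPM. Alveolar type 2 cells were at 3568 CPM in CONV and 3784 in FLASH, or 20.3 and 31.5 times the T-like level. These multiples differ mainly through the T-like level, which was 176 CPM in CONV and 120 in FLASH.

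**Figure D1:**
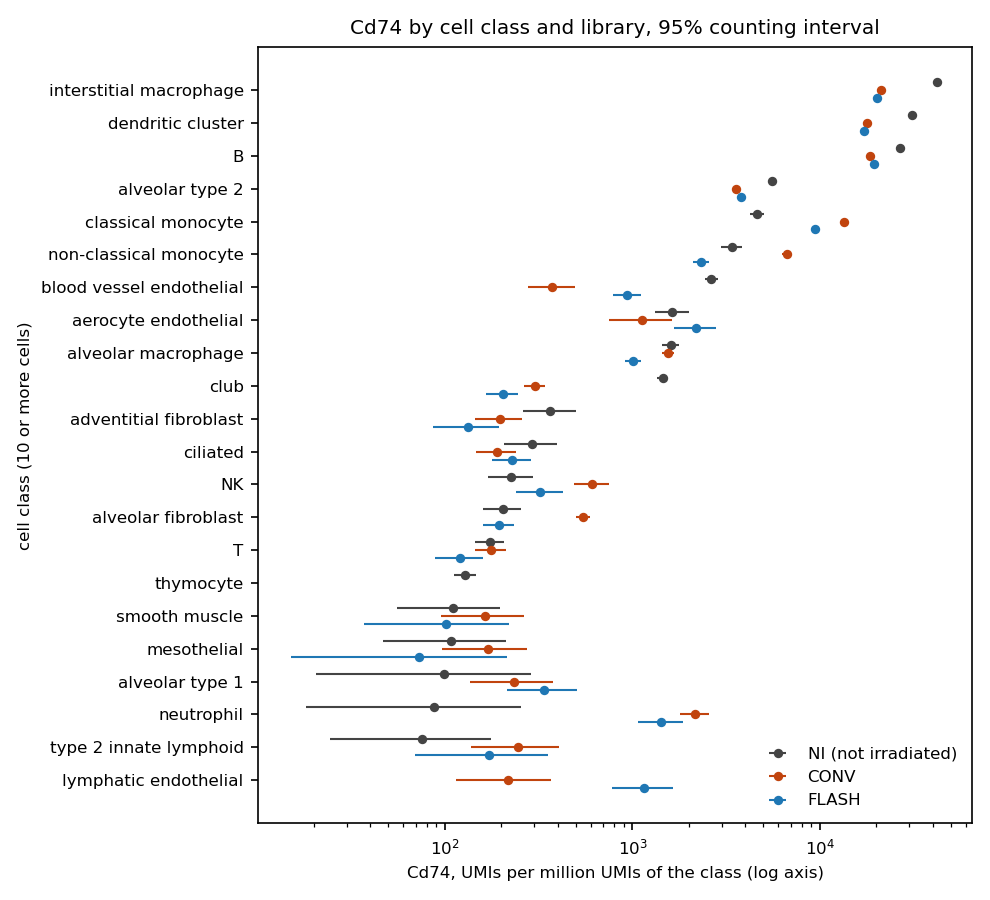
Cd74 level in each cell class with 10 or more cells, in CPM of the class on a log axis, for the NI, CONV and FLASH libraries; points are the summed level and bars the 95% counting interval. The 3 leading classes are highest in NI, the classical monocytes are highest in CONV (13429 CPM), and the blood vessel endothelial cluster is highest in NI (2640 CPM).

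The chains that form the surface molecule followed Cd74 from class to class. H2-Ab1, the beta chain of I-A, was at 8960, 5735 and 6096 CPM in interstitial macrophages of NI, CONV and FLASH, at 8861, 6222 and 5677 in the dendritic cluster and at 5021, 4020 and 4115 in B cells. H2-Aa, its alpha chain, was at 10168, 4834 and 5591 CPM in interstitial macrophages, 8438, 5024 and 5244 in the dendritic cluster and 5467, 3979 and 4179 in B cells. H2-Eb1 stood at 6311, 3999 and 4384 CPM in interstitial macrophages and 2998, 2723 and 2705 in B cells. All of these classes were highest in the control library for each of the chains. The dendritic cluster includes a sub-cluster led by lymphocyte genes, described below. Without it the median log2 ratio of the 10 genes to NI was -0.25 in CONV and -0.26 in FLASH, not -0.74 and -0.66. In each, 2 of the 10 genes were then higher than in NI. T-like cells had 64.5, 94.5 and 57.7 CPM of H2-Ab1 in NI, CONV and FLASH.

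The peptide-editing genes set B cells apart from type 2 cells, interstitial macrophages and the dendritic cluster. H2-DMb2 made up 90.2% of the H2-DMb1 and H2-DMb2 UMIs of B cells in NI (764 against 83 UMIs; 88.0 to 92.1%), 92.1% in CONV (199 against 17) and 93.1% in FLASH (258 against 19). In alveolar type 2 cells that share was 7.59, 9.15 and 7.28%, in interstitial macrophages 8.02, 8.82 and 1.69%, and in the dendritic cluster 22.5, 18.5 and 16.8%. The B cell share was above these 3 classes in each of the 3 libraries, with intervals that did not overlap. It was not above club-like cells of NI, at 87.8% (43 against 6 UMIs; 75.2 to 95.4%), where 1 cell gave 51.2% of the H2-DMb2 UMIs, nor above classes with few such UMIs, such as aerocyte endothelial-like cells of FLASH (5 against 0). The sequence overlap of the transcripts limits how exactly either share is known, since reads common to both genes are lost from both. H2-DMa, the alpha chain that pairs with either beta chain, was at 640, 512 and 468 CPM in B cells and 1017, 752 and 652 CPM in the dendritic cluster.

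H2-Oa and H2-Ob, the chains of the H2-DM inhibitor, were also concentrated in B cells. H2-Oa was at 343, 274 and 325 CPM in B cells and 134, 67.8 and 84.3 CPM in the dendritic cluster, and H2-Ob at 485, 419 and 384 CPM against 74.5, 29.1 and 45 CPM. Interstitial macrophages held 0, 2 and 2 UMIs of H2-Oa and 2, 3 and 0 of H2-Ob; in NI a count of 0 allowed up to 26.6 CPM of H2-Oa. Set against the UMIs of H2-DMa, H2-DMb1 and H2-DMb2 together, the H2-DO UMIs came to 36.8, 42.5 and 38.7% in B cells, 8.61, 5.55 and 7.80% in the dendritic cluster and 1.33, 3.18 and 3.18% in type 2 cells. B cells were 13.6, 3.94 and 5.95% of the kept cells of NI, CONV and FLASH and carried 76.5, 56.1 and 74.1% of all H2-DMb2 UMIs and 58.1, 50 and 67.3% of all H2-Oa UMIs. Of the library's Cd74 UMIs they carried 36.6, 13 and 20.8%, while alveolar type 2 cells carried 12.8, 20.4 and 21.3%.

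Ciita was sparse: 120 UMIs were counted in all kept cells. B cells held 26 of them in NI, 3 in CONV and 8 in FLASH, the dendritic cluster 7, 5 and 8, and alveolar type 2 cells 3, 8 and 7. In the endothelial cluster 6 Ciita UMIs were found in NI and none in CONV or FLASH, which allows up to 27.5 and 25.7 CPM against 29 CPM in NI (10.6 to 63.0), so a difference was not detectable at this depth.

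**Figure D2:**
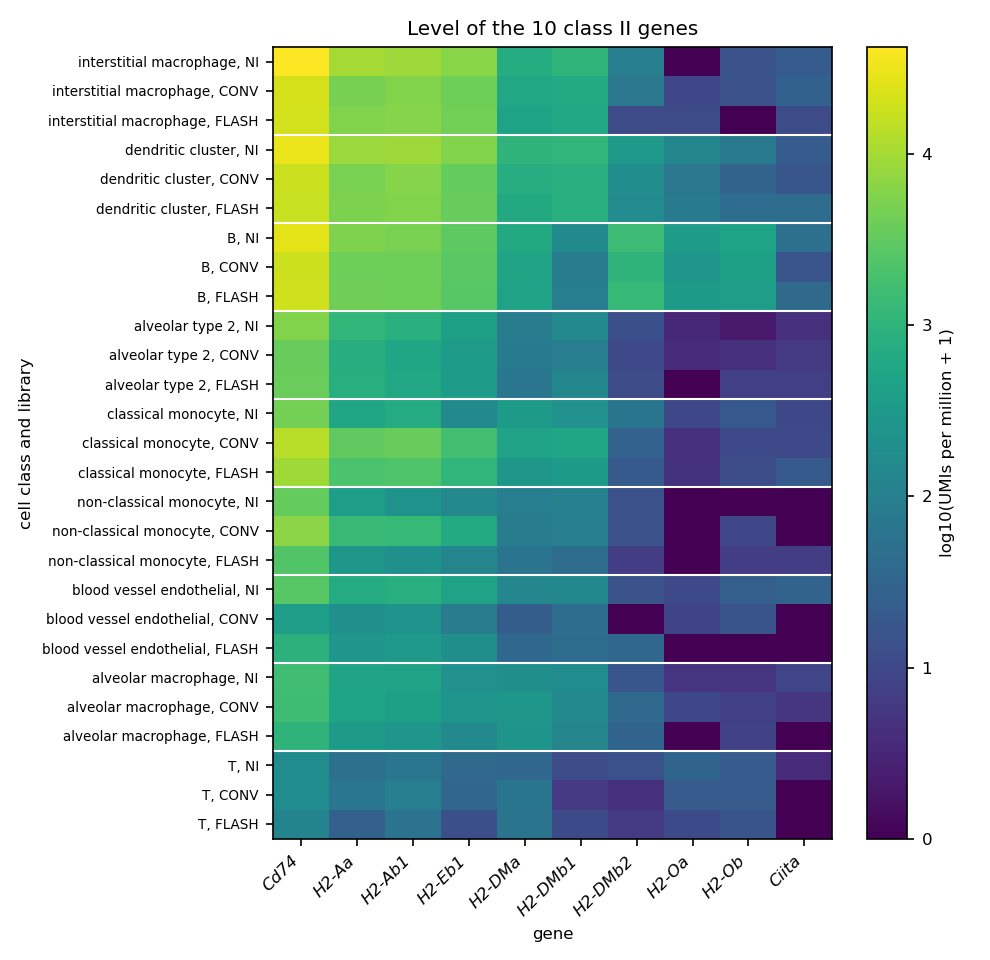
Heat map of the 10 genes (columns) in 9 cell classes of each library (rows), colour showing log10 of CPM plus 1. The 3 rows of B cells are bright for H2-DMb2, H2-Oa and H2-Ob (1454, 343 and 485 CPM in NI), and the CONV and FLASH rows of the blood vessel endothelial cluster are darker than its NI row.

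In the blood vessel endothelial cluster (Plvap, Ptprb and Gpihbp1 among its leading genes) each of the 6 class II genes with 30 or more UMIs was lower in both irradiated libraries. Cd74 was at 2640 CPM in NI (547 UMIs, 76 cells), 373 in CONV (50 UMIs, 58 cells) and 935 in FLASH (134 UMIs, 83 cells). The control was the highest, and its interval (2424 to 2871) overlapped neither of the others. The CONV to NI ratio was 0.141 (0.104 to 0.189) and the FLASH to NI ratio 0.354 (0.291 to 0.428). H2-Ab1 went from 787 CPM to 224 and 314 (ratios 0.285 and 0.399), H2-Aa from 710 to 209 and 258 (0.295 and 0.364) and H2-Eb1 from 463 to 89.6 and 202 (0.193 and 0.437). H2-DMa counts were 29, 3 and 5 UMIs and H2-DMb1 counts 30, 6 and 6.

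Calling a gene lower where its ratio was at most 0.5 with at least 30 UMIs over both libraries, 6 of 6 class II genes were lower in CONV against NI, while 8.05% of all 2037 genes tested in that cluster were. In FLASH against NI the count was again 6 of 6, with a background of 6.79% of 2077 genes. The median log2 ratio of the class II genes was -2.08 in CONV and -1.48 in FLASH, and that of all genes -0.07 in both. Between the irradiated libraries, 2 of 4 genes were at least 2-fold higher in FLASH than in CONV (Cd74 2.50, 1.80 to 3.54; H2-Eb1 2.26, 1.12 to 4.86), against 1.87% of all genes.

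That last difference rested on a few cells. A sub-cluster of 4, 4 and 8 cells in NI, CONV and FLASH was led by lymphocyte genes (Ptprcap, Gzma, Ccl5) besides endothelial markers, and held Cd74 at 3357, 2583 and 9019 CPM. Without it, a choice made after seeing the data, Cd74 was at 2600, 186 and 279 CPM; the ratios were 0.0716 (0.0450 to 0.109) in CONV, 0.107 (0.0747 to 0.15) in FLASH, and 1.5 (0.867 to 2.64) between FLASH and CONV. The summed level of 4 B cell markers in the whole cluster was 72.4, 82.1 and 244 CPM, and that of 3 T cell markers 96.5, 89.6 and 0 CPM. Of 6 dendritic markers 5, 5 and 4 were at 0. Leaving out every cell with a B or dendritic marker UMI gave 0.0986 in CONV, 0.119 in FLASH and 1.20 between them. Subtracting the T-like level gave 0.0801 in CONV and 4.12 between the modes, clustering with the class II genes gave 0.0784 in CONV and 0.129 in FLASH, a finer clustering gave 0.583 in FLASH, and leaving out the cell with the most Cd74 UMIs of each library gave 0.0803 in CONV and 0.268 in FLASH; Cd74 was lower than in the control in each.

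Within the endothelial cluster the capillary sub-cluster carried most of the control's Cd74. It was at 3813 CPM in NI (414 UMIs, 48 cells), 87.5 CPM in CONV (1 UMI, 7 cells) and 261 CPM in FLASH (8 UMIs, 23 cells), a FLASH to NI ratio of 0.0684 (0.0294 to 0.136). The sub-clusters with venous markers together were at 2923, 227 and 334 CPM (10, 29 and 29 cells). The arterial one was low in every library, at 353, 153 and 235 CPM (14, 18 and 23 cells). So the capillary share of the cluster also differed between the libraries, and the lower level was seen within the capillary and within the venous cells.

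Single cells of the cluster also placed the control above both irradiated libraries, which had overlapping intervals between them. With each cell thinned to 1000 UMIs, 65.8% of control cells held a Cd74 UMI (54.0 to 76.3%), against 17.2% in CONV (8.59 to 29.4%) and 28.9% in FLASH (19.5 to 39.9%). T-like cells, at 16.3, 15.8 and 14.0%, stand for the share that free RNA can produce, so the CONV share was not above this background. Unthinned, the endothelial shares were 77.6, 34.5 and 33.7% at median depths of 2025.5, 1924.5 and 1338 UMIs, and the T-like ones 29.2, 27.5 and 16.2% at 2306, 1794 and 1418 UMIs. H2-Ab1 was detected in 55.3, 15.5 and 21.7% of the thinned endothelial cells.

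Genes of 2 related pathways were lower in part in these cells. Of the class I presentation list, 3 of 7 genes tested were lower in CONV, against 8.05% of all genes. They were B2m, the class I light chain, at 0.421 and the heavy chains H2-K1 at 0.492 and H2-D1 at 0.498, the last 2 close to the limit. In FLASH 2 of 7 were lower, against 6.79% of all genes (H2-D1 at 0.471 and the immunoproteasome subunit Psmb9 at 0.331). The median log2 ratios were -0.95 and -0.74. These values include the sub-cluster led by lymphocyte genes. Of the interferon-gamma response list none of 4 was called in CONV. In FLASH 2 of 4 were lower, against the same 6.79% (the transcription factor Irf1 at 0.470, the GTPase Gbp2 at 0.241). None of 5 class II antigen processing genes was called in either library; Ctsd, a lysosomal protease, had ratios of 0.988 and 0.845.

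Classical monocyte-like cells went the other way. These blood-derived Ccr2-positive cells numbered 29 in NI, 121 in CONV and 120 in FLASH, so the control fell 1 cell short of the 30 asked for, and the comparison with it was added after seeing the data. Cd74 was at 4633 CPM in NI, 13429 in CONV and 9379 in FLASH, with no overlap of the intervals; the ratio to the control was 2.90 (2.65 to 3.18) in CONV and 2.02 (1.84 to 2.23) in FLASH. H2-Ab1 was at 710, 3605 and 2222 CPM (ratios 5.08 and 3.13), and H2-Aa at 533, 3178 and 2096 CPM (5.97 and 3.94). H2-Eb1 showed the widest gap, from 160 CPM (18 UMIs) to 1648 and 1117 CPM, or 10.3 times (6.46 to 17.5) in CONV and 6.99 times (4.35 to 12.0) in FLASH.

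The peptide-editing genes of these monocytes differed less: H2-DMa was at 328, 456 and 283 CPM and H2-DMb1 at 222, 518 and 333 CPM (ratios 2.34 and 1.5). In CONV 5 of 6 class II genes were at least 2-fold higher than in NI, against 5.84% of all genes, and in FLASH 4 of 6, against 4.18%. Between the irradiated libraries, FLASH was lower for all 7 genes with 10 or more UMIs, with a median log2 ratio of -0.60 and -0.03 over all genes; Cd74 was at 0.698 (0.664 to 0.734) and H2-Ab1 at 0.616 (0.557 to 0.682) of the CONV level. None of 6 passed the 2-fold limit there, against a background of 1.63%; at a finer clustering the Cd74 ratio was 0.451. Relative to H2-Ab1, Cd74 was counted 6.53 times as often in NI, 3.72 times in CONV and 4.22 times in FLASH, so the chains differed more than the invariant chain did.

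The classical monocytes were not uniform. The median thinned cell held 2, 6 and 1 Cd74 UMIs in NI, CONV and FLASH and the cell at the 75th percentile 8, 23 and 10.25, so CONV lay above NI at both points and FLASH at the second alone. A sub-cluster with Vcan, a marker of classical monocytes, among its leading genes had Cd74 at 2467, 4978 and 2240 CPM (17, 27 and 51 cells). A sub-cluster led by Heg1 and holding C1qb among its leading genes had 8511, 15152 and 12251 CPM but only 1 cell in NI against 64 and 34, and one led by Ebf1 and Cd79a had 7738, 17180 and 16748 CPM (11, 30 and 35 cells). The Vcan sub-cluster matched classical markers alone (score 3.71), and there FLASH was not above NI. The Heg1 and Ebf1 sub-clusters scored 1.59 and 1.69 for classical markers and nearly as high, 1.47 and 1.42, for non-classical ones. Over the whole class, 4 B cell markers summed to 408, 56.2 and 119 CPM and 3 macrophage markers (C1qa, C1qb, C1qc) to 35.5, 150 and 15.3 CPM; the part of these in the class II levels was not tested, beyond leaving out cells with a B or dendritic marker UMI, which gave 2.69 and 2.08 for Cd74.

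Genes of antigen processing and class II transcription were not called in these cells. None of 7 antigen processing genes was called in either library (Ctss, the protease that trims the invariant chain, at 0.824 and 0.786), and none of 3 class II transcription genes (Spi1 at 1.01 and 0.866, Irf8 at 0.957 and 0.845). Cd83, which stabilises class II at the surface, was lower at 0.489 and 0.431.

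**Figure D3:**
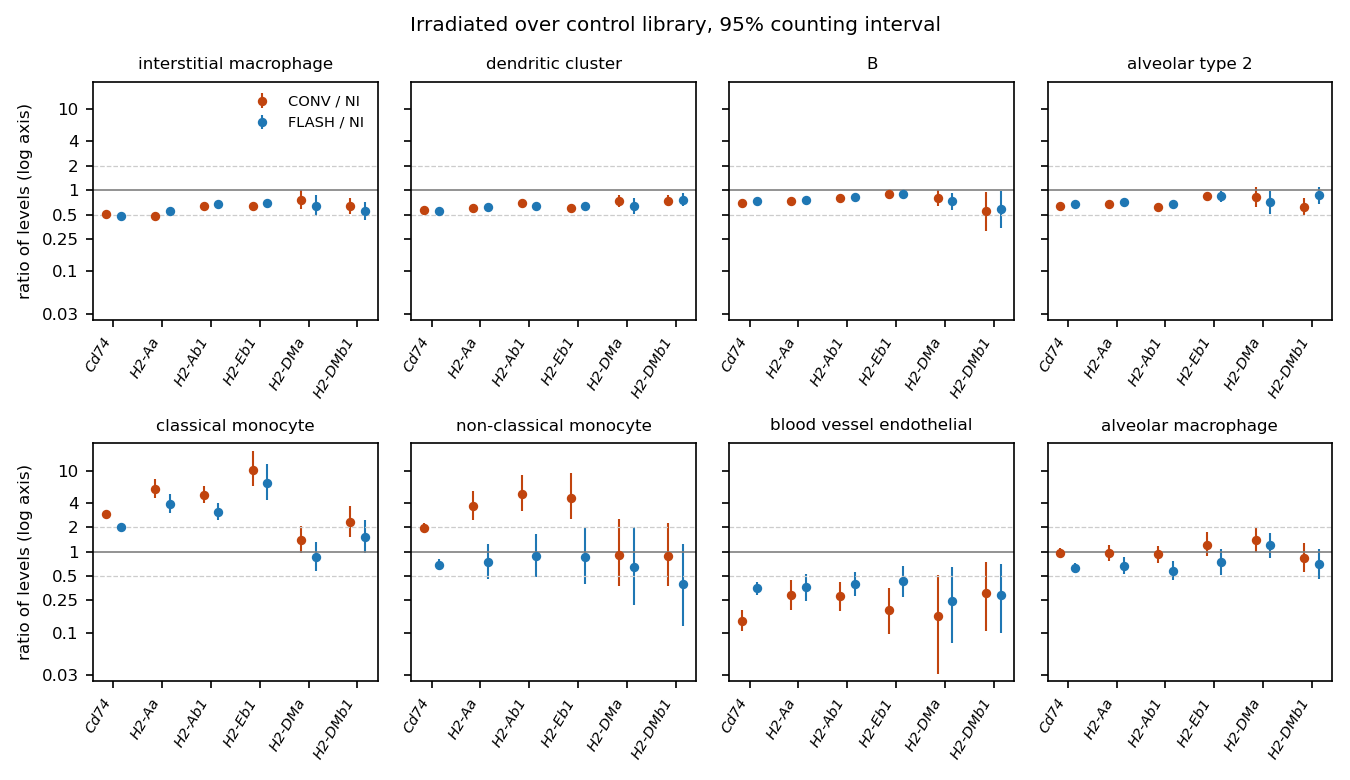
Ratio of the CONV or FLASH level to the NI level for 6 class II genes in 8 cell classes, on a log axis; points are ratios, bars 95% counting intervals, and dashed lines mark 2 and 0.5. The classical monocytes lie above 1 for Cd74 and the 3 surface chains (Cd74 2.90 in CONV, 2.02 in FLASH), the blood vessel endothelial cluster lies below 0.5 for all 6 genes, and interstitial macrophages, the dendritic cluster, B and alveolar type 2 cells lie between these, mostly from 0.5 to 1.

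Non-classical monocyte-like cells, the patrolling monocytes marked by Treml4 and Ace, differed between the radiation modes. Cd74 was at 3375 CPM in NI (33 cells), 6636 in CONV (101 cells) and 2330 in FLASH (100 cells). H2-Ab1 was at 240, 1241 and 212 CPM, H2-Aa at 374, 1373 and 278 CPM and H2-Eb1 at 147, 680 and 127 CPM. CONV was thus the high library for each of these genes, while NI and FLASH had overlapping intervals for the 3 surface chains. The CONV to NI ratio was 1.97 (1.72 to 2.25) for Cd74 and 5.17 (3.21 to 8.84) for H2-Ab1; the FLASH to CONV ratio was 0.351 (0.313 to 0.393) for Cd74 and 0.171 (0.117 to 0.243) for H2-Ab1.

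In CONV against NI 3 of 5 class II genes of the non-classical monocytes were at least 2-fold higher, against 5.49% of all genes. In FLASH against CONV 4 of 5 were lower, against 1.14%, and in FLASH against NI none of 4, against 2.12%. The median log2 ratios over the 6 genes with 10 or more UMIs were 1.43 in CONV and -0.48 in FLASH against NI and -1.90 between the modes; over all 10 genes, with no UMI limit, they were 0.49, -0.31 and -1.05. These values depended on where the class was drawn. With a minimum of 500 genes per cell the class grew to 62, 222 and 220 cells, and the Cd74 ratios became 2.56 in CONV and 1.61 in FLASH, a reversal for FLASH, with 0.629 between the modes. No cluster was then named classical monocyte, and the class was as large as both monocyte classes of the main clustering together. At a finer clustering (resolution 2, with 41, 162 and 151 cells) the ratios were 1.48, 1.16 and 0.785. The classical monocyte class had shrunk there to 21, 60 and 69 cells. In every one of these settings CONV was the highest of the 3 libraries for Cd74. Classical monocytes were themselves highest in CONV, so these alternatives cannot check the non-classical cells alone.

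The cells of the class split into a larger sub-cluster (29, 58 and 71 cells), with Cd74 at 3751, 4995 and 2063 CPM, and a smaller one (4, 43 and 29 cells), at 1053, 8844 and 3035 CPM. The top 10% of thinned cells held 6.8, 18 and 6 or more Cd74 UMIs while the medians were 1, 2 and 1. Cd74 was counted 14.1, 5.35 and 11.0 times as often as H2-Ab1 in NI, CONV and FLASH. All 6 dendritic markers were at 0 in NI and 4 and 5 of them in CONV and FLASH, and the list summed to 0, 8.56 and 6.05 CPM. B cell markers summed to 66.7, 64.2 and 54.5 CPM. Of the pathway lists, 1 of 3 class II transcription genes was called higher in CONV, against 5.49% of all genes (Irf8, 5 to 37 UMIs, ratio 2.37, 0.930 to 7.74). None of 7 processing genes was called, and Cd83 was lower at 0.447.

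B cells, in which class II is constitutive, had moderately lower levels in both irradiated libraries. The 3 libraries held 231, 94 and 134 B cells. Cd74 was at 26806, 18448 and 19455 CPM, with the control above both others; the ratios were 0.688 (0.663 to 0.714) in CONV and 0.726 (0.7 to 0.752) in FLASH, and 1.05 (1.01 to 1.10) between FLASH and CONV. H2-Aa was at 0.728 and 0.764 of the control, H2-Ab1 at 0.801 and 0.819 and H2-Eb1 at 0.908 and 0.902. All 10 genes were lower in both libraries, with median log2 ratios of -0.39 and -0.33 against -0.02 and -0.12 over all genes.

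None of these B cell genes reached the 2-fold limit: 0 of 9 in CONV, against 4.51% of all genes, and 0 of 10 in FLASH, against 6.20%. Nearly every B cell held Cd74, at 100, 100 and 99.2% of thinned cells, and the median cell had 28, 20 and 21 UMIs per 1000, so the median cell was lower in the irradiated libraries at nearly the same share of cells. H2-DMb1 had the lowest ratios among the genes with 30 UMIs, 0.556 and 0.593, but on 17 and 19 UMIs. H2-Eb2, a related beta chain gene, had 13, 6 and 10 UMIs. In CONV no gene of the other pathway lists was called; in FLASH the protease Ctsb was higher at 2.16 and the co-stimulatory receptor Cd40 (0.305) and the interferon-gamma receptor chain Ifngr2 (0.247) were lower, each on 25 or fewer FLASH UMIs.

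The dendritic-like cluster was named from Cd209a, Flt3 and other markers of type 2 cells, but sub-clusters matched type 1, migratory and plasmacytoid markers too. Cd74 was at 30829 CPM in NI, 17808 in CONV and 17182 in FLASH (55, 73 and 55 cells), with ratios of 0.578 (0.559 to 0.597) and 0.557 (0.535 to 0.580). H2-Ob was the 1 of 9 class II genes called lower in CONV (0.390, 0.160 to 0.863), against 5.33% of all genes, and none of 9 was in FLASH, against 6.13%. A sub-cluster led by the lymphocyte genes Dapl1, Ctla4 and Icos held 2, 20 and 11 cells with Cd74 at 3865, 225 and 282 CPM, and 3 T cell markers summed to 122, 530 and 422 CPM over the whole cluster. Without that sub-cluster Cd74 was at 31933, 25919 and 23736 CPM, and the ratios were 0.812 (0.785 to 0.839) and 0.743 (0.714 to 0.774), with H2-Ab1 at 0.990 and 0.861. The call of H2-Ob was then lost (0.547, 0.225 to 1.21), leaving 0 of 9 genes lower in CONV, against 4.50%. Under the automatic doublet threshold the cluster had ratios of 0.896 and 0.739.

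Among the dendritic sub-clusters the type 1 cells had Cd74 at 36992, 23738 and 26156 CPM (17, 9 and 8 cells), the pooled type 2 cells at 35319, 29386 and 26055 CPM (24, 35 and 26 cells) and the plasmacytoid cells at 13018, 9109 and 8398 CPM (7, 8 and 7 cells). In each of these 3 the control was highest. The migratory cells, with Ccr7-type markers, were too few to compare (5, 1 and 3 cells). In the whole cluster Cd83 (0.410) and the co-stimulatory Cd86 (0.352) were lower in CONV, and in FLASH Irf1 was higher at 12.3 on 4 and 26 UMIs. These ratios include the sub-cluster led by lymphocyte genes. It held 2 of 55 cells in NI, 20 of 73 in CONV and 11 of 55 in FLASH.

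Interstitial macrophage-like cells were compared with 29 control cells, again an addition made after seeing the data. Cd74 was at 42351, 21253 and 20248 CPM, with ratios of 0.502 (0.483 to 0.521) in CONV and 0.478 (0.459 to 0.498) in FLASH. H2-Ab1 was at 0.640 and 0.680 of the control and H2-Eb1 at 0.634 and 0.695. All 7 genes with 10 or more UMIs were lower in both libraries, with median log2 ratios of -0.65 and -0.84, where all genes had 0.13 and 0.10. Past the 2-fold limit were 1 of 6 in CONV (H2-Aa, 0.475), against 2.71% of all genes, and 1 of 6 in FLASH (Cd74), against 2.64%. No gene of the other pathway lists was called in either, with B2m at 0.642 and 0.665.

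Here the single cells differed in kind. All thinned control macrophages held Cd74, against 78.7% in CONV and 71.6% in FLASH, and the median cell had 40, 10 and 6 UMIs per 1000. The sub-cluster led by Ccl17 and Mmp12 had 79303, 36247 and 35170 CPM (10, 35 and 27 cells) and the one led by Acp5 and Ccl3 34236, 25666 and 34178 CPM (6, 20 and 14 cells). The sub-clusters holding Pla2g2d and Cxcl13, at 21447, 3467 and 7274 CPM (9, 18 and 37 cells), and Retnla and Cd209b, at 15280, 2191 and 2472 CPM (4, 16 and 10 cells), had wider gaps. The control library was highest in all 4, by very little in the Acp5 sub-cluster of FLASH.

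**Figure D4:**
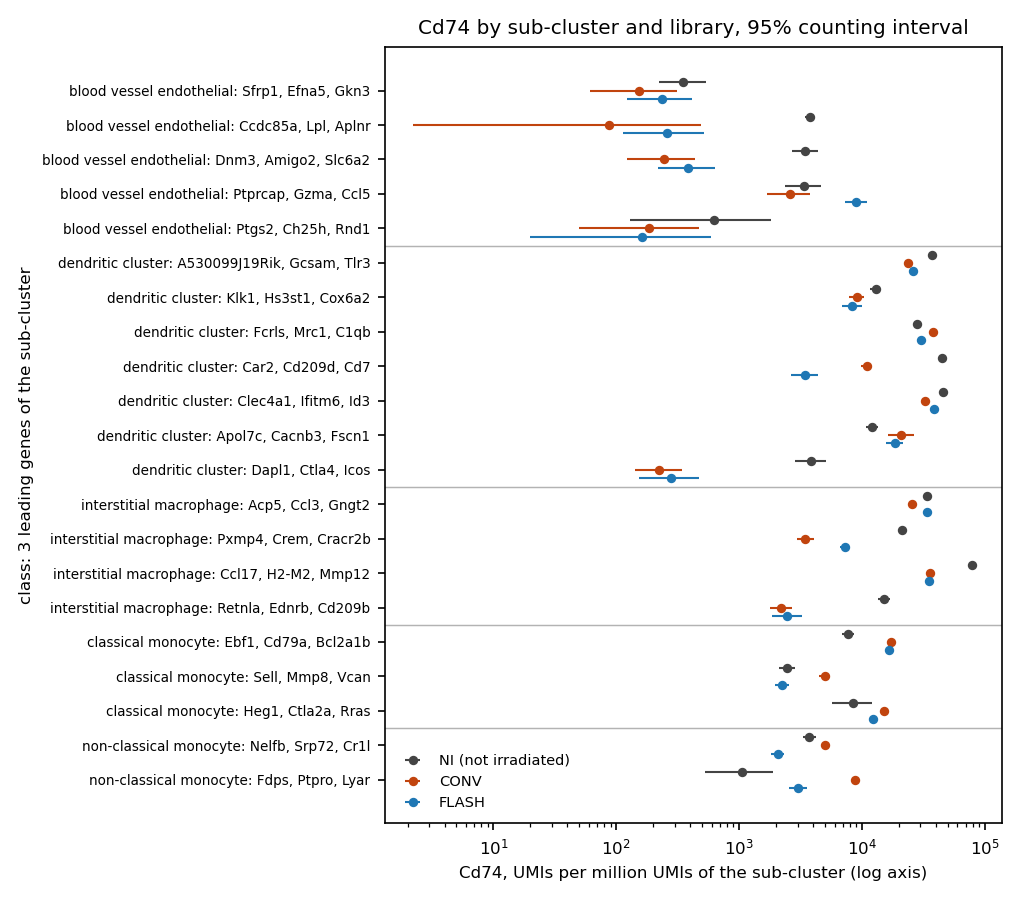
Cd74 level in the sub-clusters of 5 cell classes, in CPM on a log axis, with 95% counting intervals; each sub-cluster is named by its class and 3 leading genes. The capillary endothelial sub-cluster (Ccdc85a, Lpl, Aplnr) is at 3813 CPM in NI and 87.5 and 261 CPM in CONV and FLASH, and the sub-cluster of the dendritic cluster led by Dapl1 is at 225 and 282 CPM in the irradiated libraries.

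Alveolar type 2-like cells, the epithelial class with class II, numbered 136, 403 and 331. Cd74 was at 5548 CPM in NI (5394 to 5705), 3568 in CONV and 3784 in FLASH, with ratios of 0.643 (0.619 to 0.668) and 0.682 (0.654 to 0.711). H2-Ab1 was at 879, 547 and 599 CPM (0.622 and 0.681), H2-Aa at 1138, 766 and 807 CPM (0.673 and 0.709) and H2-Eb1 at 430, 361 and 360 CPM (0.839 and 0.837). Control cells were highest for each, and the irradiated libraries were close to each other, with FLASH to CONV ratios from 0.998 to 1.10 for these 4 genes. H2-DMb1 was the exception, at 151, 94.7 and 131 CPM, with a FLASH to CONV ratio of 1.38 (1.09 to 1.75).

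Of the type 2 cells 94.1, 91.3 and 90.6% held Cd74 after thinning, with medians of 5, 3 and 3 UMIs per 1000, so the median cell was lower in the irradiated libraries while most cells held the transcript in all 3. None of 6 class II genes passed the 2-fold limit in CONV, against 1.77% of all genes, and none in FLASH, against 1.87%; the median log2 ratios were -0.46 and -0.38. Cd74 was counted 6.31, 6.53 and 6.32 times as often as H2-Ab1, the most even ratio of the classes described. The summed B cell markers were at 61.0, 50.8 and 46.8 CPM. Among the pathway lists Ctss was higher in CONV at 4.61 (5 and 41 UMIs), with macrophage markers at 9.04 CPM in NI and 42.6 in CONV, and the RFX subunit Rfxap at 2.49; no class I gene of 7 was called, and B2m was at 0.766 and 0.817.

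Alveolar macrophage-like cells, the resident phagocytes of the air space (70, 196 and 202 cells), had low class II that was lower in FLASH alone. Cd74 was at 1601 CPM in NI, 1556 in CONV and 1008 in FLASH; NI and CONV overlapped, with a ratio of 0.972 (0.858 to 1.10), and FLASH lay below both, at 0.630 (0.548 to 0.724) of NI and 0.648 (0.574 to 0.732) of CONV. H2-Ab1 was at 463, 430 and 269 CPM and H2-Aa at 500, 484 and 337 CPM, in the same order. H2-DMa had no such order, at 205, 284 and 245 CPM. None of 6 genes passed the 2-fold limit in FLASH against NI (background 1.63%) and none of 7 in FLASH against CONV (1.12%), and the medians were -0.49 and -0.52 on the log2 scale. No gene of the pathway lists was called; B2m was at 0.970 and 0.976 of the control.

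**Figure D5:**
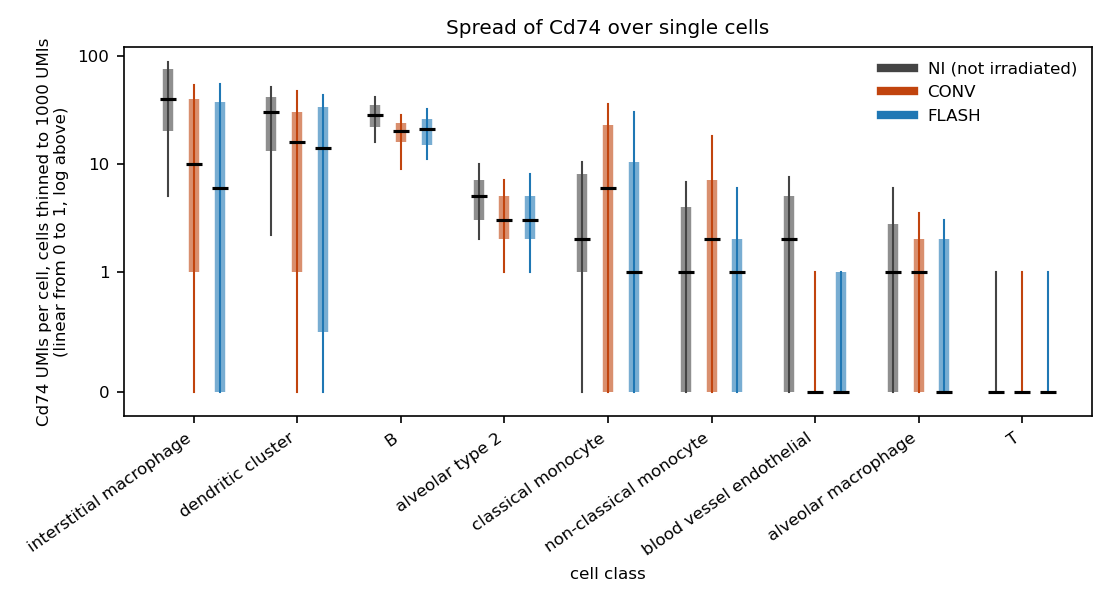
Cd74 UMIs per cell after thinning each cell to 1000 UMIs, for 9 classes in the NI, CONV and FLASH libraries; black dashes are medians, thick bars run from the 25th to the 75th percentile and thin lines from the 10th to the 90th, on an axis linear from 0 to 1 and logarithmic above. B and alveolar type 2 cells shift as a whole (medians 28, 20, 21 and 5, 3, 3), whereas the upper end of the classical monocytes is highest in CONV (75th percentile 8, 23 and 10.25).

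Club-like cells, secretory cells of the airway lining (31, 67 and 43 cells), had Cd74 at 1448 CPM in NI, 302 in CONV and 203 in FLASH. The ratios were 0.208 (0.180 to 0.241) in CONV and 0.140 (0.113 to 0.172) in FLASH. H2-Ab1 was at 493, 131 and 117 CPM and H2-Aa at 402, 93.4 and 70.4 CPM, so the control was the high library for each. In both irradiated libraries 5 of 5 class II genes were called lower, against 4.44% of all genes in CONV and 6.93% in FLASH, with median log2 ratios of -2.09 and -2.46. A single control cell held 59.4% of the Cd74 UMIs of its class. Leaving out the cell with the most Cd74 UMIs of each library, a choice made after seeing the data, put Cd74 at 601, 256 and 158 CPM, with ratios of 0.425 (0.356 to 0.507) and 0.263 (0.204 to 0.336); 3 of 4 genes were then called lower in CONV (background 3.51%) and 3 of 4 in FLASH (5.30%). After thinning 16.1, 28.4 and 18.6% of club cells held a Cd74 UMI, in NI about the share of T-like cells.

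Natural killer-like cells (90, 70 and 102 cells), cytotoxic lymphocytes, had low Cd74 that was highest in CONV, at 226, 610 and 322 CPM. The CONV to NI ratio was 2.70 (1.91 to 3.85) and the FLASH to NI ratio 1.42 (0.951 to 2.13). All 4 genes with 30 UMIs were called higher in CONV (Cd74, H2-Aa at 3.69, H2-Ab1 at 2.06 and H2-Eb1 at 2.16), against 2.45% of all genes, and none of 3 in FLASH, against 1.88%; between the modes 1 of 3 was lower in FLASH (H2-Aa, 0.400), against 1.71%. Without the highest cell of each library the levels were 130, 412 and 111 CPM and the ratios 3.18 and 0.858, with 3 of 3 genes called higher in CONV (2.26%) and 3 of 3 lower in FLASH than in CONV (1.84%). Without cells holding a B or dendritic marker UMI the Cd74 ratios were 1.44 and 0.799, and the call in CONV was lost. The thinned shares with Cd74, 13.3, 15.7 and 11.0%, were at or below those of T-like cells.

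Alveolar fibroblast-like cells, stromal cells of the alveolar wall (112, 410 and 337 cells), were also highest in CONV, with Cd74 at 203, 544 and 195 CPM. CONV was 2.68 times NI (2.11 to 3.45), and FLASH was 0.958 of NI (0.711 to 1.30) and 0.358 of CONV (0.289 to 0.439). In CONV 4 of 4 class II genes were called higher, against 4.72% of all genes, and none of 3 in FLASH, against 3.66%; 5 of 5 were lower in FLASH than in CONV, against 1.71%. Without the highest cell of each library the ratio was 2.39 in CONV, with 3 of 4 called (4.71%), and 0.426 between the modes, with 1 of 4 called (1.57%). Without cells holding a B or dendritic marker UMI the ratios were 1.20 in CONV and 0.687 between the modes, and both calls for Cd74 were lost. B cell markers summed to 42.2, 48.2 and 22.4 CPM in the class. After thinning 18.8, 20.2 and 13.7% of the cells held Cd74, with intervals that overlapped those of T-like cells. The class pooled clusters that differed. In one (70, 232 and 191 cells) Cd74 was at 235, 822 and 176 CPM, and 1 cell gave 43% of the CONV UMIs. In the other (42, 178 and 146 cells) it was at 158, 244 and 214 CPM, with overlapping intervals.

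In T-like cells themselves none of 6 genes was called lower in CONV, against 8.72% of all genes, and 1 of 5 in FLASH (H2-Eb1, 0.322, on 5 FLASH UMIs), against 11.2%; between the modes 1 of 4 was lower in FLASH (H2-Aa, 0.388), against 1.54%. Between the modes, Cd74 ratios had intervals that included 1 in ciliated-like (1.21), alveolar type 1-like (1.44) and adventitial fibroblast-like cells (0.678), and smooth muscle-like cells had no class II gene with 30 UMIs. Neutrophil-like cells had 3 Cd74 UMIs in 13 control cells, too few to compare, against 2158 CPM in 23 CONV cells and 1423 CPM in 22 FLASH cells, of which about 1 cell gave 33.9 and 32.1%.

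Interferon-gamma, the known inducer of class II outside the professional cells, was itself measured. Ifng had 44 UMIs in 13 of 90 natural killer-like cells of NI, 19 of them in 1 cell, 4 UMIs in 3 of 70 cells of CONV and 12 in 7 of 102 cells of FLASH; T-like cells had 1 UMI in each library. The shares of natural killer cells with a UMI, 14.4% (7.92 to 23.4%), 4.29% (0.893 to 12.0%) and 6.86% (2.80 to 13.6%), had overlapping intervals.

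Over 63 points (a cell class in a library), the mean log2 level of the 10 genes was most like that of Cd180 among 12431 other genes with at least 50 UMIs (Pearson r = 0.786). Then came A530040E14Rik (0.779), Plcg2 (0.774), Cd83 (0.773), Ly86 (0.772), Il4i1 (0.771), Wdfy4 (0.760) and Hepacam2 (0.753). The points of a library share its free RNA and depth, so these values describe likeness and carry no test. Among the 10 genes themselves the likeness ran from 0.605 for H2-Oa to 0.955 for H2-Ab1.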

How the data were processed

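The values are raw UMI counts per gene and barcode, as deposited by the authors; the submitters' processing notes name Cell Ranger 2.0 and mm10. No other upstream step is given in those sources. The 10 genes, the gene lists and the comparisons were chosen with earlier results of these data known. Barcodes with under 200 genes (50), over 10% mitochondrial UMIs (154) or the highest Scrublet scores (117, at 0.8% per 1000 barcodes) were left out; the automatic Scrublet threshold marked 50 (0.7505%). The 3 libraries were clustered together (scanpy 1.11.5, Python 3.11.15, igraph 0.11.9, scipy 1.17.1, numpy 2.4.6, pandas 2.3.3; scaled to 10000 UMIs, 2000 variable genes without the 10 members, 30 components, 15 neighbours, Leiden resolution 1). A cluster took the name with the highest marker score among 32 lists, given at least 3 markers in 10% of its cells at 2-fold; 5 classes were clustered again into 21 sub-clusters (1000 genes, 15 components, resolution 0.6 or 0.5), a choice made after seeing the data.

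UMIs were summed per class and library and divided by all UMIs of the class. Level intervals are exact Poisson, share intervals Clopper-Pearson and ratio intervals conditional binomial. Ratios are described in classes of at least 30 cells in both libraries, and for 2 classes with 29 control cells as an addition; those of other classes with fewer cells were computed but are not described. Shares of cells were taken after thinning each cell to 1000 UMIs, leaving out shallower cells (all of FLASH: 4 of 134 B-like, 2 of 102 natural killer-like and 1 each of the T-like, alveolar fibroblast-like, non-classical monocyte-like and smooth muscle-like cells). The ratio step was tested on simulated data. Genes were named by rule: all 10 members in classes with 10 UMIs, the 8 genes most like them, and up to 3 genes of each list per class with any that a result turned on. Alternatives covered the filters, clustering, scaling, thinning, free RNA and cells with foreign markers. A proteins table was not used here. Some genes of the lists are not reported here.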

Additional observations from a re-analysis of the deposited data

Results flagged for a closer look

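The Cd74 ratios to the control went opposite ways in different classes, each in its 1 irradiated library, and the difference between the classes was not tested. In CONV the ratio was 2.90 for classical and 1.97 for non-classical monocytes, 2.70 for natural killer and 2.68 for alveolar fibroblast cells, but 0.141 in the blood vessel endothelial-like cluster and 0.208 in club-like cells. In FLASH it was 2.02 in classical monocyte-like cells, 0.354 in the endothelial cluster and 0.140 in club cells. In the sub-cluster of classical monocytes with Vcan, FLASH was not above the control. The natural killer and fibroblast calls for Cd74 in CONV were lost without cells holding a B or dendritic marker UMI. In both classes the thinned share of cells with Cd74 was about that of T-like cells. A single control cell held most Cd74 UMIs of the club class. Without the highest cells the club ratios were nearer to the control but still below it.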

How the results depend on the processing

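Of 348 alternative values of the 33 Cd74 ratios, 250 stayed within their counting interval, 94 moved out of it and 4 reversed. The cause was not tested. A change of direction counted as reversed only where the main interval excluded equal levels. Elsewhere it counted as moved or as within the interval, so more than these 4 values changed direction. Below, ratios are CONV to NI, FLASH to NI and FLASH to CONV unless fewer are named. In non-classical monocytes a minimum of 500 genes gave 2.56, 1.61 (reversed) and 0.629, with the median log2 ratio of FLASH at 0.69, and resolution 2 gave 1.48, 1.16 (reversed) and 0.785, with 0.21; clustering with the class II genes gave 0.394 between the modes. In interstitial macrophages the FLASH to CONV ratio reversed to 1.01 under the automatic Scrublet threshold and to 1.04 without cells holding a B or dendritic marker UMI; other moves were 0.483 (CONV, Scrublet), 0.538 (FLASH, marker cells out), 0.444, 0.441 and 0.995 (mitochondrial limit 5%) and 0.471 and 0.450 (scaling without mitochondrial, ribosomal, haemoglobin and member UMIs). With no UMI limit on the members, the median log2 ratio of alveolar macrophages in CONV became 0.13.

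The dendritic cluster gave 0.812, 0.743 and 0.916 without its lymphoid sub-cluster; 0.849, 0.743 and 0.875 at 5% mitochondrial; 0.896, 0.739 and 0.824 with automatic Scrublet; 0.891, 0.787 and 0.884 with 500 genes and again at resolution 2; 0.836 and 0.806 with class II genes in the clustering; 0.544 and 0.508 with median-of-ratios scaling; and 0.532 (FLASH) at 20% mitochondrial.

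The endothelial cluster gave 0.0716, 0.107 and 1.5 without its lymphoid sub-cluster (median between the modes -0.10 on the log2 scale, reversed); 0.0986, 0.119 and 1.20 without marker cells (-0.15, reversed); 0.0784, 0.129 and 1.64 with class II genes in the clustering; 0.0801 (CONV) and 4.12 (between modes) after subtracting the T-like level; 0.202 and 0.464 with 500 genes; and 0.583 (FLASH) at resolution 2. Its cells with Cd74 were 77.6% in NI and 34.5% in CONV unthinned, and 14.5% in FLASH at 500 UMIs.

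Classical monocytes gave 3.26 and 2.29 with median-of-ratios scaling, 2.26 (FLASH) and 0.735 at 20% mitochondrial, 0.775 between the modes without marker cells and 0.451 at resolution 2. Leaving out the cell with the most Cd74 UMIs of each library gave 3.36 and 2.32 (classical monocytes), 2.41 (CONV, non-classical) and 0.0803 and 0.268 (endothelial cluster).

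Club cells gave 0.0987 and 0.0651 after subtracting the T-like level, 0.169 and 0.0954 with automatic Scrublet, 0.425 and 0.263 without the highest cells, and in FLASH 0.103 at 20% mitochondrial and 0.104 with class II genes in the clustering. Natural killer cells gave 8.26 and 3.83 with the T-like level subtracted, 9.67 and 3.86 at resolution 2, 1.44 and 0.799 without marker cells (median log2 ratio of FLASH -0.62, reversed), 0.858 (FLASH) and 0.270 (between modes) without the highest cells (median -0.20, reversed) and 4.16 (FLASH) at 5% mitochondrial. Alveolar fibroblasts gave 12.4, 2.49 and 0.202 with the T-like level subtracted, 3.61 (CONV) and 0.210 (between modes) at 5% and 0.691 (FLASH) and 0.219 at 20% mitochondrial, 1.58 (FLASH) and 0.543 with automatic Scrublet, 1.77 (CONV) and 0.525 with class II genes in the clustering and 1.20 (CONV) and 0.687 without marker cells; with no UMI limit their FLASH median was 0.30 (reversed).

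Alveolar type 2 cells gave 0.570, 0.646 and 1.13 at 5% mitochondrial and 0.671 (CONV) with median-of-ratios scaling. B cells gave 0.654 (CONV) and 1.11 with median-of-ratios scaling and 0.770 (FLASH) with the reduced scaling. With automatic Scrublet the classes with Cd74 above 5 times the T-like level numbered 5 in CONV and 5 in FLASH, not 9 and 11. Subtracting the T-like level put the H2-DMb2 share of control type 2 cells at 0%. By Spearman correlation 3 of the 8 most like genes were shared.

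With 500 genes no cluster was named classical monocyte, and at resolution 2 that class had 21 control cells, too few for a ratio to NI. The non-classical monocyte class grew in both settings, so its ratios there do not describe the same cells as the main ones. Depth limited Ciita and H2-DO most, with under 10 UMIs in most classes. No paired analysis was possible because each group has 1 library.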
